A study of Mus musculus with 9 samples.

Results

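Transcripts of 10 enzymes of mucin-type O-glycosylation were followed in the murine colon carcinoma line MC38 and in its liver metastatic derivatives. The members were chosen by gene symbol, as Galnt1, Galnt2, Galnt3, Galnt4, Galnt7, Galnt10, Galnt11, Galnt12, C1galt1 and Gcnt1. All 10 were found among the 16399 genes listed for each library, and all 10 reached 1 TPM (transcripts per 1000000) in at least 3 libraries, as did 11287 genes in all. MC38-P was the parental line, and MC38-LM3a and MC38-LM3b were obtained after 3 rounds of injection into the spleen of C57BL/6 mice with recovery of tumour cells from the liver. The study describes the 2 as independently derived, but names only 1 MC38 line of the second round, MC38-LM2. If both came from MC38-LM2, they share the first 2 rounds and were separate only in the third. All lines were grown in culture and carried GFP and luciferase, and RNA was sequenced from 3 biological replicates of each, 9 libraries in all. Each derivative is 1 line, so replicates measure the spread between cultures of a line and not between selections.

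Mucin-type O-glycosylation starts in the Golgi, where polypeptide GalNAc-transferases (the GALNT family) attach N-acetylgalactosamine to serine or threonine. Some members of the family act on bare peptide, and others prefer peptide that already carries the sugar. C1GALT1 then adds galactose to make the core 1 structure, GCNT1 branches core 1 into core 2, and further transferases extend the chains or cap them with sialic acid. Truncated O-glycans are a known feature of colorectal carcinomas. The comparisons ask whether the transcripts of the enzymes differed between a derivative and MC38-P, and between the derivatives.

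The values were TPM as deposited, which are scaled for transcript length and to the same total in each library. No read counts were given, so the depth was unknown and no counting error could be computed. The 9 libraries agreed across genes with r between 0.969 and 0.997 on the log2(TPM + 1) scale. Replicate 3 stood apart in both MC38-P and MC38-LM3a. Of the tested genes, 75.52% had their lowest MC38-P value in MC38-P replicate 3, and 74.52% had their highest MC38-LM3a value in MC38-LM3a replicate 3. The deviation from the group mean followed transcript length, with a Spearman correlation across genes of -0.62 in the first of these libraries and 0.644 in the second, as a description, since genes are not independent replicates. The labels call the cells epithelial. Krt8 lay between 743.78 and 1205.6 TPM and Krt18 between 707.11 and 981.48 TPM, but Cdh1, which encodes E-cadherin, reached at most 0.08 TPM. Of the other marker lists, 1 of 10 hepatocyte genes, 1 of 10 macrophage genes, 0 of 8 T cell genes, 1 of 8 endothelial genes and 5 of 10 fibroblast and stellate cell genes reached 1 TPM in at least 3 libraries. Alb and Ptprc, the defining hepatocyte and leukocyte genes, were at or below 0.29 and 0.09 TPM. The summed level of the fibroblast and stellate list, most of it Col3a1, was 140.0 to 177.0 TPM in MC38-P and between 55.8 and 75.1 TPM in the 6 derivative libraries. Col3a1 lay between 48.58 and 154.16 TPM over the 9 libraries, while Col1a2 and Dcn reached at most 0.08 and 0.13 TPM. The summed level of the macrophage list, nearly all of it Cd68, was 27.8 to 29.7 TPM in MC38-P and 34.3 to 45.7 TPM in the derivative libraries, and that of the epithelial list was 2000.0 to 2320.0 TPM and 1590.0 to 1810.0 TPM. None of these 3 sums overlapped between MC38-P and the derivatives, and their part in the results was not tested.

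Galnt1 was the most abundant of the 10 transcripts in each line. Its mean was 116.7 TPM in the parental line, 132.8 TPM for MC38-LM3a and 157.4 TPM for MC38-LM3b (n = 3 each), and no other member overlapped it within a line. Galnt7, Galnt10 and Galnt2 came next in MC38-P, at means of 57.79, 57.2 and 47.2 TPM. The values of Galnt7 and Galnt10 overlapped there. Gcnt1 and C1galt1 followed at 31.45 and 29.39 TPM and overlapped each other. Galnt12 stood at 21.01 TPM and Galnt3 at 13.32 TPM, without overlap. Galnt11 and Galnt4 were the least abundant, at 6.11 and 5.92 TPM, and overlapped. In MC38-LM3a the order of the means was the same, although C1galt1 and Galnt12 then overlapped, as did Galnt10 and Galnt2. In MC38-LM3b, Galnt2 (69.14 TPM) passed Galnt10 (66.54 TPM) without overlap, and Galnt3 came within the range of Galnt12.

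**Figure D1:**
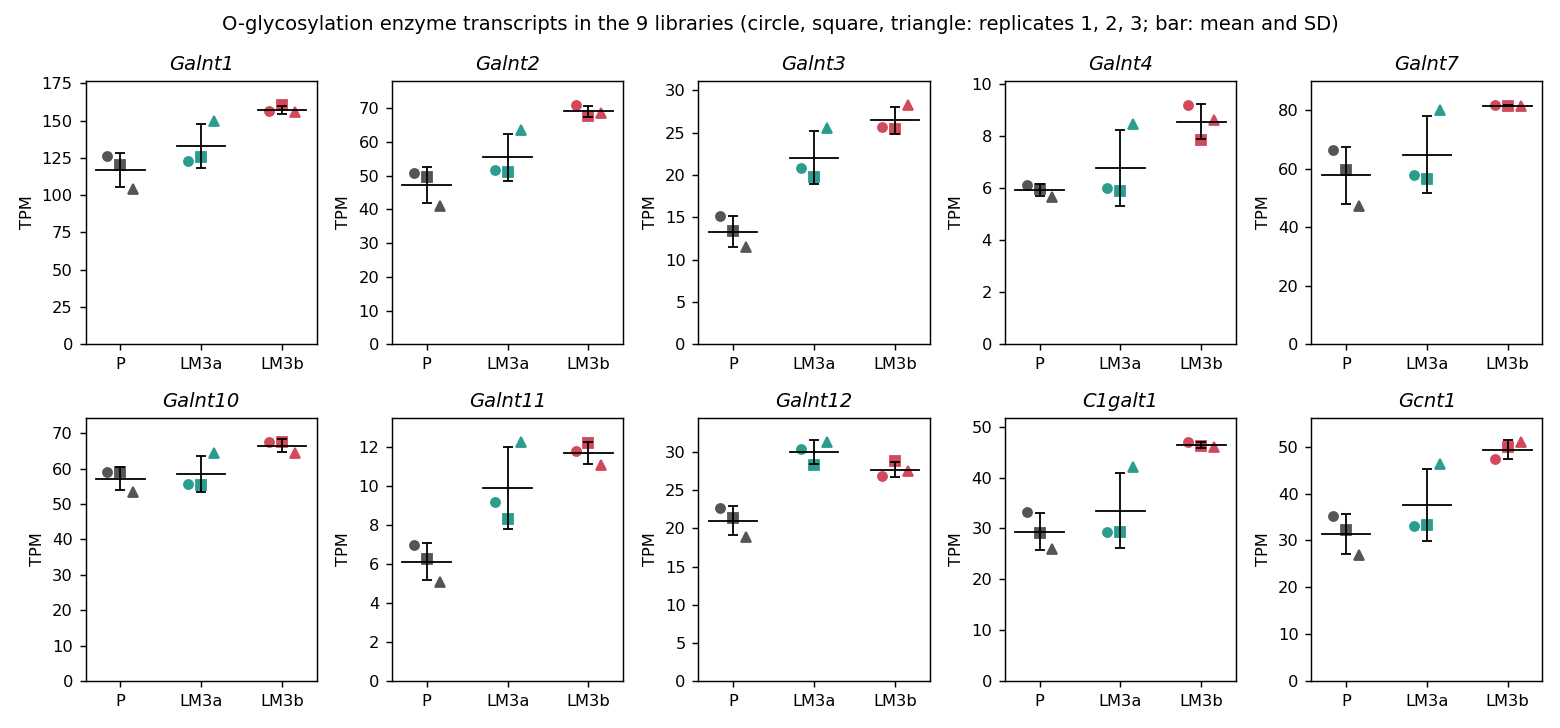
TPM (vertical axes, each from 0) of the 10 enzymes in the replicates of the parental line (P) and the derivatives (LM3a, LM3b), with bars for the mean and SD of 3 replicates. The triangle, replicate 3, is the lowest MC38-P value and the highest MC38-LM3a value in all 10 panels.

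Levels were also set against the median tested gene of each library, as the difference in log2(TPM + 1). Galnt1, Galnt2, Galnt7, Galnt10, C1galt1 and Gcnt1 lay above that median in all 9 libraries. Galnt1 was 2.28 to 2.53 above it. Galnt12 lay below the median in each MC38-P library, above it in each MC38-LM3a library, and above it in 5 of the 9 libraries in all. Galnt3 was above the median in 1 library only, MC38-LM3b replicate 3, and averaged -0.76 ± 0.06 (SD, n = 3) in the parental line, against -0.08 ± 0.04 for MC38-LM3a and -0.04 ± 0.09 for MC38-LM3b. Galnt4 and Galnt11 stayed below the median in all 9 libraries.

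**Figure D2:**
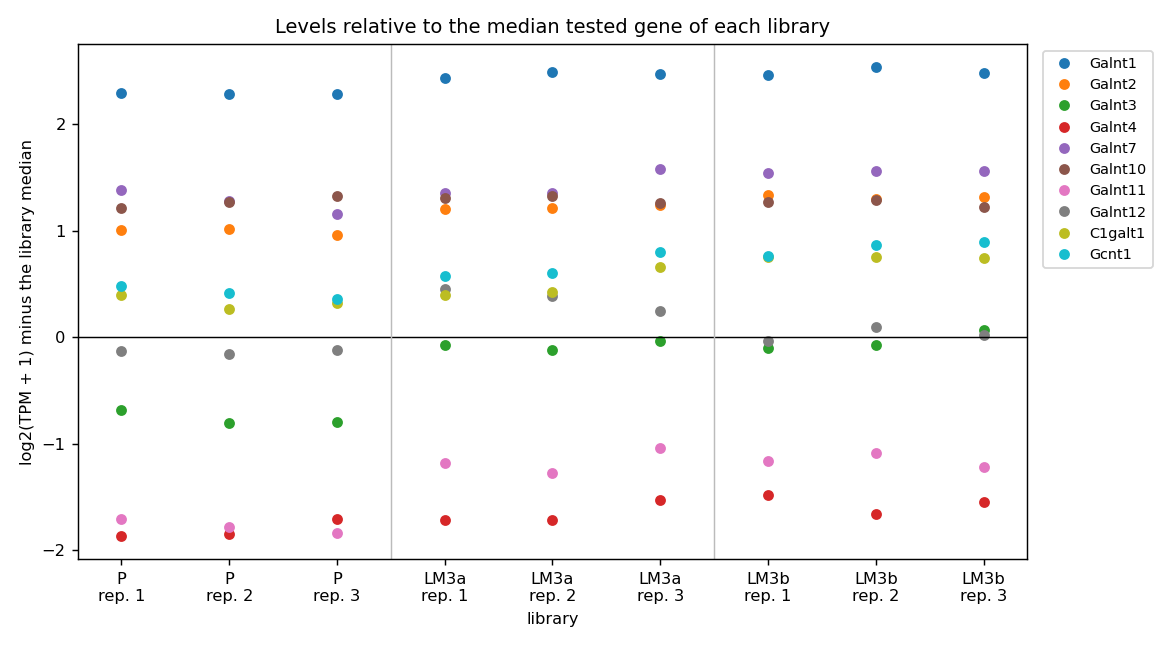
Difference between log2(TPM + 1) of each enzyme and the median tested gene of the same library (vertical axis), for the 9 libraries (horizontal axis, points for single libraries). Galnt1, Galnt2, Galnt3, Galnt11, Galnt12, C1galt1 and Gcnt1 sit higher in all 6 derivative libraries than in the 3 MC38-P libraries. C1galt1 does so only narrowly, while Galnt10 stays between 1.21 and 1.32 throughout.

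Upstream sequences of 4 members are shown next, so that the 5' regions can be set beside the values. RefSeq windows of GRCm38.p6 were available for 6 of the 10 members, and those shown are the 250 bases before an annotated start. Windows that overlapped an exon of a coding transcript are not shown, which leaves out Galnt3 and C1galt1. Galnt11 rose in both derivatives, Galnt10 had log2 fold changes against MC38-P of 0.03 and -0.01 once libraries were set against their median, and Galnt7 and Gcnt1 rose in MC38-LM3b. Capitals mark GGGCGG (the GC box), TGTGGT (the core of a RUNX site), TATAAA (found near some start sites), and CCAAT (a promoter element), each searched on both strands, and none of these motifs overlaps another here.
Galnt11, chr5:25222622-25222871, plus strand: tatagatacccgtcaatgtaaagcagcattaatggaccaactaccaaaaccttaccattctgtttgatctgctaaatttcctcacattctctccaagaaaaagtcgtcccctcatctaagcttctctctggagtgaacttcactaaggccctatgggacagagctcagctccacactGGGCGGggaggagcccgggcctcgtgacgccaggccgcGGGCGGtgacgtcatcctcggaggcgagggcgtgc
Galnt10, chr11:57645192-57645441, plus strand: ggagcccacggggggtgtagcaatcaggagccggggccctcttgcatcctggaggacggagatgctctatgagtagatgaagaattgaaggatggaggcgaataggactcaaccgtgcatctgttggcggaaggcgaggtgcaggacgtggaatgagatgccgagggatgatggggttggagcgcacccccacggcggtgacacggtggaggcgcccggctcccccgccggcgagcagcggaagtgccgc
Galnt7, chr8:57653056-57653305, minus strand: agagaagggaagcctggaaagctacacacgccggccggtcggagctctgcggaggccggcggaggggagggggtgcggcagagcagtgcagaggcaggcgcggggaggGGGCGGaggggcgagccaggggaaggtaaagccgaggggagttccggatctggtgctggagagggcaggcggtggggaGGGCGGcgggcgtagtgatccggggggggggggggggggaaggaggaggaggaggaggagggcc
Gcnt1, chr19:17372845-17373094, minus strand: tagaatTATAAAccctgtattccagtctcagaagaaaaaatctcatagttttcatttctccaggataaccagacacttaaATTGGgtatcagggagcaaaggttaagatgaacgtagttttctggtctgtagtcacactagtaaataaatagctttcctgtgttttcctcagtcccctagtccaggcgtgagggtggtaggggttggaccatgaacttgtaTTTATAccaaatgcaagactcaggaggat
The Galnt11 and Galnt7 windows shown each held 2 GC boxes, and the Galnt10 window held none of the 4 motifs. A second annotated start of Galnt11 (chr5:25246123-25246372, GC content 42.8%) and another of Gcnt1 (chr19:17356668-17356917, GC content 55.6%), not shown, held none of them either. Of the windows that overlapped an exon, that of Galnt3 held 3 GC boxes (GC content 76.8%), that of C1galt1 held 5 (82.8%), and another of Gcnt1 held 1 CCAAT element (51.6%). The Gcnt1 window, upstream of the most distal of its annotated starts, held the TATA element 2 times and the CCAAT element 1 time. Over the 32851 RefSeq windows of this length, the GC box was in 32.7%, the RUNX core in 14.0%, the TATA element in 12.4% and the CCAAT element in 33.8%. The RUNX core was in none of the 4 windows shown. The windows had GC contents of 54.0% (Galnt11), 64.4% (Galnt10), 73.6% (Galnt7) and 40.4% (Gcnt1), against a median of 52.4% over all windows. A match says only that the letters are present.

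Galnt3, Galnt11 and Galnt12 rose in both derivatives against MC38-P, although with libraries set against their median Galnt12 in MC38-LM3b was at 0.16 (adjusted p = 0.05873) and did not pass. They were the 3 members of 10 that passed the test (limma on log2(TPM + 1), adjusted p under 0.05 over all tested genes) in MC38-LM3a, where 28.0% of the tested genes passed and 14.1% passed with a higher value. In MC38-LM3b all 10 members passed, each with a higher value, where 46.7% of the tested genes passed and 35.6% were higher. Of the tested genes, 13.3% passed with a higher value in both derivatives. Galnt3 and Galnt11 passed in both in every fit that left out a library and under each of 3 other scalings (median, quantile, and length with GC content), as did 11.9% of the tested genes. That share counts either direction, and 6.77% of the tested genes did so with a higher value in both, as these 2 members did. The members had a median log2 fold change of 0.21 for MC38-LM3a and 0.53 for MC38-LM3b, while that of all tested genes was 0.00 and 0.21. No member passed a log2 fold change of 1 as well, which 2.89% and 3.93% of the tested genes did. TPM did not overlap MC38-P for 4 of the 10 members in MC38-LM3a (36.2% of the tested genes) and for all 10 in MC38-LM3b (66.7%). Both comparisons used the same MC38-P libraries. In bulk RNA, a different make-up of a culture and a different level per cell cannot be told apart.

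Galnt3 (NCBI Gene 14425; GRCm38 chr2:66082766-66124994, minus strand) had the largest change of the members in both derivatives. GALNT3 starts O-glycans on peptide and is known for its action on the phosphate-regulating hormone FGF23. Its values were 15.12, 13.33 and 11.50 TPM in MC38-P, 20.88, 19.74 and 25.55 TPM in MC38-LM3a, and 25.61, 25.48 and 28.27 TPM in MC38-LM3b. All 6 derivative values lay above all 3 MC38-P values. The means were 1.66-fold higher for MC38-LM3a and 1.99-fold higher for MC38-LM3b, with log2 fold changes of 0.69 ± 0.12 (SE, adjusted p = 0.002217) and 0.95 ± 0.12 (adjusted p = 0.0002261). With each library set against its median, they were 0.69 ± 0.06 and 0.72 ± 0.06.

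Galnt11 (NCBI Gene 231050; GRCm38 chr5:25221904-25265918, plus strand), whose product glycosylates the linkers between repeats of LDL receptor family proteins, had the next largest change in MC38-LM3b. It measured 6.98, 6.26 and 5.09 TPM in MC38-P, 9.15, 8.28 and 12.26 TPM in MC38-LM3a, and 11.77, 12.17 and 11.07 TPM in MC38-LM3b. The MC38-P values did not overlap those of either derivative. Its log2 fold change was 0.61 ± 0.15 (adjusted p = 0.01198) for MC38-LM3a and 0.84 ± 0.15 (adjusted p = 0.001382) for MC38-LM3b. On the scale of the library median the log2 fold changes were 0.61 ± 0.08 and 0.62 ± 0.08, and the derivatives differed by 0.01 ± 0.08.

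Galnt12 (NCBI Gene 230145; GRCm38 chr4:47091909-47123070, plus strand), whose human counterpart is expressed in the digestive tract, was the member with a higher mean in MC38-LM3a than in MC38-LM3b. Its values were 22.74, 21.36 and 18.94 TPM in MC38-P, 30.36, 28.35 and 31.38 TPM in MC38-LM3a, and 26.84, 28.82 and 27.48 TPM in MC38-LM3b. Both derivatives lay wholly above MC38-P, and they overlapped each other. The log2 fold change was 0.50 ± 0.09 (adjusted p = 0.002325) for MC38-LM3a and 0.39 ± 0.09 (adjusted p = 0.006214) for MC38-LM3b. Relative to the library median the change in MC38-LM3a stayed at 0.50 (adjusted p = 0.0002414), and in MC38-LM3b it was 0.16 (adjusted p = 0.05873) and no longer passed, nor did it with quantile normalization. The MC38-LM3b value relative to the library median passed without MC38-LM3a replicate 3 (0.16, adjusted p = 0.02374), and it passed with length and GC content fitted (0.24, adjusted p = 0.00258). The difference of MC38-LM3b from MC38-LM3a on that scale was -0.33 ± 0.06, with an adjusted p of 0.1537 with all libraries and -0.39, adjusted p = 0.01031, without MC38-LM3a replicate 3. Genes of chromosome 4, where Galnt12 lies, had a median log2 fold change of 0.10 in MC38-LM3a, compared with -0.02 to 0.02 on the chromosomes of the other members. In MC38-LM3b the highest such median was 0.30, on chromosome 6, where C1galt1 lies. The chromosomes of the other members, with chromosome 4 among them, had medians of 0.20 to 0.25 there.

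Galnt1 and Galnt2 encode broadly expressed enzymes that start O-glycans on bare peptide. Galnt1 (NCBI Gene 14423, on chromosome 18) measured 126.02, 119.99 and 104.09 TPM in MC38-P, 122.81, 125.56 and 149.90 TPM in MC38-LM3a, and 156.17, 160.46 and 155.54 TPM in MC38-LM3b. The MC38-LM3b values lay above all others, while MC38-LM3a overlapped MC38-P. Its log2 fold change was 0.43 ± 0.09 (adjusted p = 0.003472) in MC38-LM3b, and 0.18 ± 0.09 (adjusted p = 0.1668) in MC38-LM3a, where it was 0.09 without MC38-LM3a replicate 3. Galnt2 (NCBI Gene 108148; GRCm38 chr8:124231391-124345724, plus strand) measured 50.96, 49.51 and 41.13 TPM in MC38-P, 51.84, 51.17 and 63.51 TPM in MC38-LM3a, and 71.01, 67.85 and 68.56 TPM in MC38-LM3b. Its MC38-LM3a values lay just above those of MC38-P, and its MC38-LM3b values above both. The log2 fold change was 0.55 ± 0.10 (adjusted p = 0.001992) in MC38-LM3b and 0.23 ± 0.10 (adjusted p = 0.132) in MC38-LM3a, where it was 0.13 without MC38-LM3a replicate 3. Both genes passed in both derivatives against the library median, Galnt1 by 0.18 (adjusted p = 0.01194) in MC38-LM3a and 0.21 (adjusted p = 0.004751) in MC38-LM3b, and Galnt2 by 0.23 (adjusted p = 0.003047) and 0.32 (adjusted p = 0.0003049).

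Galnt4, Galnt7 and Galnt10 encode enzymes that prefer peptide already carrying N-acetylgalactosamine. None of the 3 passed in MC38-LM3a, at log2 fold changes of 0.15 ± 0.14, 0.16 ± 0.14 and 0.03 ± 0.08. Galnt7 (NCBI Gene 108150; GRCm38 chr8:57523828-57653032, minus strand) measured 66.48, 59.63 and 47.27 TPM in MC38-P, 57.81, 56.57 and 80.13 TPM in MC38-LM3a, and 81.80, 81.33 and 81.49 TPM in MC38-LM3b. The 3 MC38-LM3b cultures were close to each other and above every other value, and only MC38-LM3a replicate 3 came near them. The log2 fold change in MC38-LM3b was 0.50 ± 0.14 (adjusted p = 0.01617), and 0.37 (adjusted p = 0.05244) without MC38-P replicate 3. Relative to the library median it was 0.28 (adjusted p = 0.01237).

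Galnt4 (NCBI Gene 14426; GRCm38 chr10:99108159-99113247, plus strand) measured 6.13, 5.96 and 5.67 TPM in MC38-P, 5.99, 5.88 and 8.45 TPM in MC38-LM3a, and 9.20, 7.86 and 8.62 TPM in MC38-LM3b. It overlapped MC38-P in MC38-LM3a but not in MC38-LM3b. The log2 fold change in MC38-LM3b was 0.46 ± 0.14 (adjusted p = 0.01815). The call was lost without MC38-LM3b replicate 1 (0.42, adjusted p = 0.07258) and without MC38-LM3b replicate 3 (0.46, adjusted p = 0.05598). On the scale of the library median it was 0.24 (adjusted p = 0.03748). Galnt4 lies within Poc1b, a centriole protein gene on the same strand, and a short Poc1b transcript overlaps it, so reads of the overlap could be assigned to either gene. Poc1b itself measured 15.09, 15.89 and 11.05 TPM in MC38-P, 10.67, 10.56 and 11.85 TPM in MC38-LM3a, and 13.44, 13.03 and 11.48 TPM in MC38-LM3b.

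Galnt10 (NCBI Gene 171212; GRCm38 chr11:57645442-57787514, plus strand) measured 59.03, 59.21 and 53.35 TPM in MC38-P, 55.76, 55.27 and 64.34 TPM in MC38-LM3a, and 67.65, 67.44 and 64.52 TPM in MC38-LM3b. Its MC38-LM3b values lay above those of MC38-P, with the smallest fold change of the members. The log2 fold change in MC38-LM3b was 0.22 ± 0.08 (adjusted p = 0.04613), close to the 0.21 of the median tested gene. Relative to the library median it was -0.01 ± 0.05 (adjusted p = 0.9147). The call was kept in 1 of the 9 fits that left out a library, that without MC38-LM3a replicate 3, with adjusted p between 0.05222 and 0.1381 in the others.

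C1galt1 (NCBI Gene 94192; GRCm38 chr6:7844842-7875687, plus strand), the core 1 synthase, and Gcnt1 (NCBI Gene 14537; GRCm38 chr19:17326141-17372844, minus strand), the core 2 branching enzyme, had nearly equal changes. C1galt1 measured 33.15, 29.02 and 26.01 TPM in MC38-P, 29.27, 29.24 and 42.06 TPM in MC38-LM3a, and 47.09, 46.17 and 46.00 TPM in MC38-LM3b. Gcnt1 measured 35.29, 32.25 and 26.81 TPM in MC38-P, 33.10, 33.23 and 46.33 TPM in MC38-LM3a, and 47.29, 49.87 and 51.10 TPM in MC38-LM3b. For both genes the MC38-LM3b values exceeded all others, and MC38-LM3a replicates 1 and 2 lay among the MC38-P values while replicate 3 lay above them. The log2 fold change in MC38-LM3b was 0.65 ± 0.14 (adjusted p = 0.003655) for C1galt1 and 0.64 ± 0.14 (adjusted p = 0.003678) for Gcnt1. In MC38-LM3a it was 0.17 ± 0.14 (adjusted p = 0.4077) and 0.24 ± 0.14 (adjusted p = 0.2278). Set against the library median, C1galt1 passed in MC38-LM3b (0.43, adjusted p = 0.001078) while MC38-LM3a was at 0.17 (adjusted p = 0.09503), and Gcnt1 passed in both (0.42, adjusted p = 0.001042, and 0.24, adjusted p = 0.02453). The ratio of Gcnt1 to C1galt1 TPM was 1.07 ± 0.04 in the parental line, 1.12 ± 0.02 for MC38-LM3a and 1.07 ± 0.06 for MC38-LM3b (SD, n = 3).

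**Figure D3:**
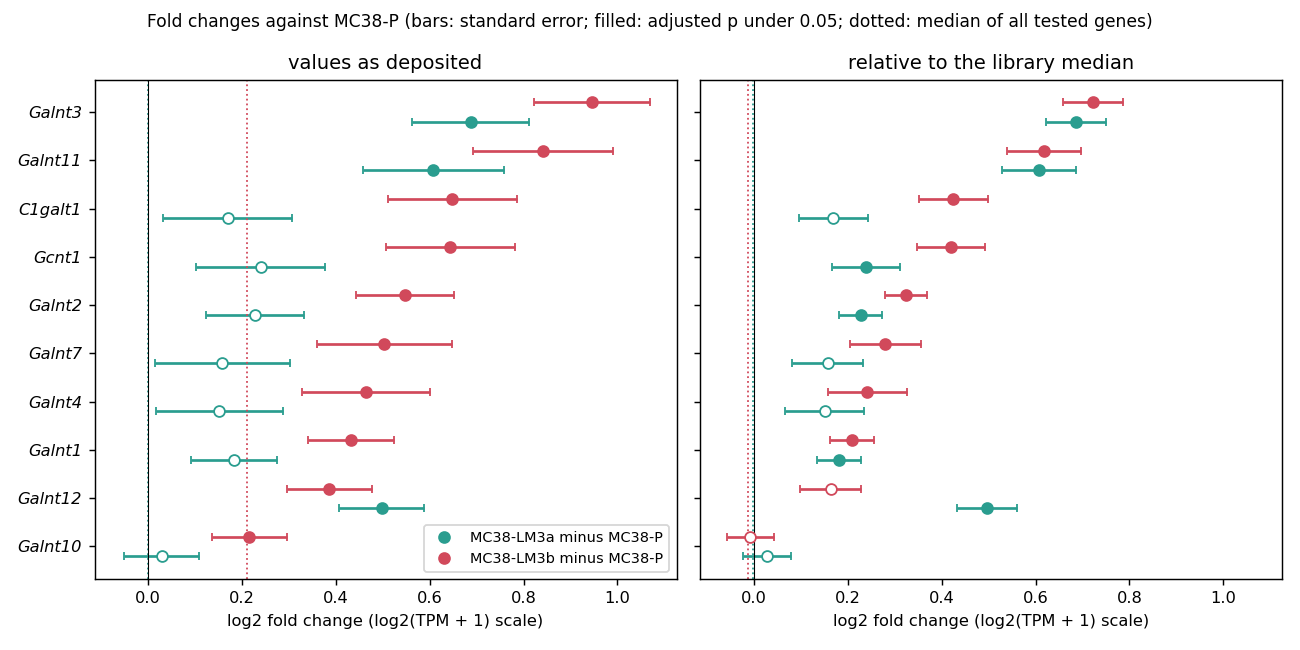
Log2 fold change (horizontal axes, log2(TPM + 1) scale, bars for the standard error) of the 10 enzymes in MC38-LM3a and MC38-LM3b against MC38-P, with values as deposited on the left and relative to the library median on the right. Filled points passed the test. The median of all tested genes, the dotted line, is 0.21 for MC38-LM3b on the left, and Galnt10 moves from 0.22 to -0.01 when each library is set against its median.

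Relative to the library median, 6 of the 10 members passed in MC38-LM3a (40.0% of the tested genes passed, 19.8% with a higher value) and 8 of 10 in MC38-LM3b (49.3% passed, 22.9% higher), and each that passed was higher. Of all tested genes, 20.1% and 26.4% passed with a lower value. Galnt1, Galnt2, Galnt3, Galnt11 and Gcnt1 passed in both derivatives on this scale, where 33.0% of the tested genes passed in both and 15.9% were higher in both. This scale changes the log2 fold change of every gene by the same amount, -0.22 in MC38-LM3b and under 0.01 in size in MC38-LM3a. The 4 members that did not pass in MC38-LM3a were Galnt4, Galnt7, Galnt10 and C1galt1.

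No member differed between MC38-LM3b and MC38-LM3a by the adjusted test in limma. Adjusted p ran from 0.1187 to 0.3416, and 7 of the 10 had an unadjusted p under 0.05. Of all tested genes, 0.0532% passed and 38.1% had an unadjusted p under 0.05. The log2 difference of MC38-LM3b from MC38-LM3a was above 0 for 9 members and reached 0.48 ± 0.14 for C1galt1, while Galnt12 was at -0.11 ± 0.09. The median was 0.29 for the members and 0.21 for all tested genes. Relative to the library median the members had a median of 0.06 and C1galt1 was at 0.26, and 8 members were above 0. The TPM of the derivatives did not overlap for 6 of 10 members (Galnt1, Galnt2, Galnt7, Galnt10, C1galt1 and Gcnt1), as for 42.0% of the tested genes. Without MC38-LM3a replicate 3, 9 members passed, all higher in MC38-LM3b, but 56.4% of the tested genes then passed too. With that library left out and the others set against their median, 4 members passed, where 38.3% of the tested genes did. Galnt7 (0.20, adjusted p = 0.03977), C1galt1 (0.34, adjusted p = 0.01031) and Gcnt1 (0.25, adjusted p = 0.01463) were then higher in MC38-LM3b, and Galnt12 was lower.

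Replicate 3 of MC38-LM3a touches each value given for that line. All 10 members were highest there, by 0.09 (Galnt12) to 0.51 (C1galt1) on the log2 scale over the mean of replicates 1 and 2, where the median tested gene was 0.23 higher. All 10 were lowest in MC38-P replicate 3, by 0.08 (Galnt4) to 0.41 (Galnt7), where the median tested gene was 0.22 lower. Galnt12 has the shortest transcript of the 10 in GENCODE M21, at 2288 bases, and C1galt1 the longest, at 6092 bases. The median tested gene has 3426 bases, and 9 of the 10 members are longer. With transcript length and GC content fitted in each library, 7 members passed in MC38-LM3a (51.2% of the genes tested), 9 in MC38-LM3b (57.4%) and none between the derivatives (0.198%). Without replicate 3 of both MC38-P and MC38-LM3a, 4 members passed in MC38-LM3a (63.6% of the genes tested), with Galnt3, Galnt11 and Galnt12 higher. Galnt7 passed with a log2 fold change of -0.14, the same as the -0.14 of the median tested gene in that fit.

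The make-up of the GalNAc-transferase transcripts was compared as shares of the summed TPM of the 15 listed family genes, which does not depend on the scale of the library. The sum was 327.9 ± 34.9 TPM in the parental line, 382.2 ± 48.5 TPM for MC38-LM3a and 451.1 ± 3.18 TPM for MC38-LM3b. Galnt1 gave about the same share in each line, at 35.6%, 34.8% and 34.9%. Galnt3 made up 4.05% ± 0.17 of the parental sum, 5.77% ± 0.14 of that of MC38-LM3a and 5.87% ± 0.39 of that of MC38-LM3b. Galnt11 made up 1.86% ± 0.10, 2.57% ± 0.22 and 2.59% ± 0.11. For both genes the shares of each derivative lay wholly above those of MC38-P. The Galnt12 share was 6.42% for MC38-P, 7.91% for MC38-LM3a and 6.14% for MC38-LM3b, and it overlapped between MC38-P and MC38-LM3b only. The Galnt10 share was lower in both derivatives without overlap, at 15.3% ± 0.57 and 14.7% ± 0.29, against 17.5% ± 0.95 for MC38-P. Shares sum to a whole, so a higher share of some genes lowers that of others.

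**Figure D4:**
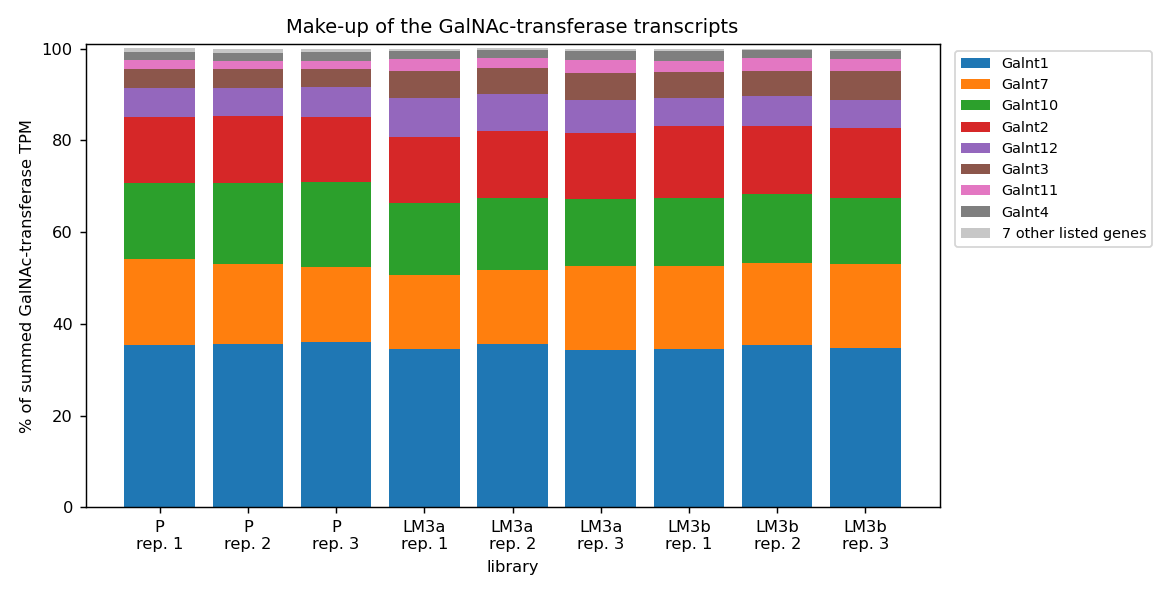
Share of the summed TPM of 15 GalNAc-transferase genes (vertical axis, %) that each gene gave in the 9 libraries (horizontal axis). Galnt3, Galnt11 and Galnt12 together gave 12.3% for MC38-P, 16.2% for MC38-LM3a and 14.6% for MC38-LM3b, and the 7 other listed genes under 1% in each line.

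Of the 11 other GalNAc-transferase genes, 7 were listed and only Galnt13 was tested, at means of 1.39, 0.947 and 1.19 TPM. With all libraries and values as deposited it had no call in either derivative, at -0.30 and -0.12. The MC38-LM3a value was -0.17 without MC38-LM3a replicate 2. Without replicate 3 of both MC38-P and MC38-LM3a, Galnt13 passed in MC38-LM3a at -0.57 (adjusted p = 0.01527 in limma). With libraries set against their median and without MC38-LM3a replicate 3, it passed in MC38-LM3b at -0.35 (adjusted p = 0.04837). With all libraries and length and GC content fitted, Galnt13 passed in MC38-LM3b at -0.40 (adjusted p = 0.0252 in limma). The longest run of bases that a member transcript shared exactly with another GalNAc-transferase transcript was 23 bases, so a longer read could match only 1 of them exactly. By its profile over the 9 libraries, Galnt3 was most like Glt28d2 (r = 0.9963), Tmem19 (r = 0.9962), Hs2st1 (r = 0.9958), Snrk (r = 0.9945) and Arhgap10 (r = 0.9945). Tested genes had a median r with Galnt3 of 0.5365, and 1789 genes had r over 0.9. The points share the shift of replicate 3 and the group means, and the correlations are a description.

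The remaining steps of the pathway were followed in lists of genes, given as counts that passed against MC38-P. Among all tested genes 14.1% rose and 13.8% fell in MC38-LM3a, and 35.6% rose and 11.2% fell in MC38-LM3b, with values as deposited. With libraries set against their median, 19.8% rose and 20.1% fell in MC38-LM3a, and 22.9% rose and 26.4% fell in MC38-LM3b. Of the other core enzymes, C1galt1c1, the chaperone that C1GALT1 needs, rose in both derivatives. It measured 30.18, 25.13 and 24.96 TPM in MC38-P, 35.50, 32.72 and 33.71 TPM in MC38-LM3a, and 38.58, 37.34 and 38.52 TPM in MC38-LM3b. All derivative values were above those of the parental line, by log2 fold changes of 0.34 ± 0.09 (adjusted p = 0.01669) and 0.50 ± 0.09 (adjusted p = 0.001368). The MC38-LM3b value relative to the library median was 0.28 (adjusted p = 0.0235). The call in MC38-LM3a was lost without MC38-P replicate 2 or MC38-LM3a replicate 1, with an adjusted p of up to 0.07675, and with 2 groups only (adjusted p = 0.06819). With length and GC content fitted it was 0.13 (adjusted p = 0.09382). Gcnt4, another core 2 enzyme, passed in MC38-LM3b at 0.41 ± 0.15 (adjusted p = 0.04578), and in MC38-LM3a it was at 0.08 ± 0.15. The call was kept in 2 of the 9 fits that left out a library, and lost with the replicate number as a block (adjusted p = 0.08905). Against the library median the MC38-LM3b value was 0.18 (adjusted p = 0.09974) and did not pass, though it did without MC38-LM3a replicate 3 (0.18, adjusted p = 0.03459).

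Among the genes that extend O-glycans, 3 of 12 tested rose and 2 fell in MC38-LM3a, and 6 rose and 1 fell in MC38-LM3b. With libraries set against their median, 5 rose and 3 fell, and 6 rose and 3 fell. B3gnt3, which extends core 1 with N-acetylglucosamine, had the largest rise in MC38-LM3b on the log2(TPM + 1) scale. B3gnt3 went from 79.33, 81.24 and 67.23 TPM in MC38-P to 125.64, 112.90 and 130.48 TPM for MC38-LM3a and 153.77, 143.13 and 148.06 TPM for MC38-LM3b. Its log2 fold changes were 0.69 ± 0.09 (adjusted p = 0.0002164) and 0.96 ± 0.09 (adjusted p = 1.83e-05). Fut4, a fucosyltransferase of Lewis x synthesis, rose by 0.69 and 0.85 on that scale, from a mean of 1.23 TPM to 2.61 and 2.997 TPM. By the ratio of mean TPM, the rise of Fut4 in MC38-LM3b was larger than that of B3gnt3. B3gnt2, a polylactosamine enzyme, rose by 0.27 and 0.38. B3gnt2 in MC38-LM3b was at 0.16 relative to the library median (adjusted p = 0.04517). The B3gnt2 call in MC38-LM3a was lost without MC38-P replicate 2 or 3, with an adjusted p of up to 0.07149. It was also lost with the replicate number as a block (adjusted p = 0.06689) and with 2 groups only (adjusted p = 0.07074). B4galt2, a galactosyltransferase, fell in both, by 0.59 and 0.47 from a mean of 20.19 TPM.

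Among the sialyltransferases, 1 of 7 tested rose and 2 fell in MC38-LM3a, and 4 rose and 2 fell in MC38-LM3b. With libraries set against their median, 2 rose and 2 fell in each derivative. St3gal1, which caps core 1 with sialic acid and so works on the same substrate as GCNT1, measured 14.72, 14.75 and 11.12 TPM in MC38-P, 20.77, 19.17 and 26.01 TPM in MC38-LM3a, and 30.60, 28.90 and 28.60 TPM in MC38-LM3b. The values of the 3 lines did not overlap. Its log2 fold changes were 0.66 ± 0.14 (adjusted p = 0.004366) and 1.07 ± 0.14 (adjusted p = 0.000168). St3gal6 fell from a mean of 26.52 TPM to 18.32 TPM for MC38-LM3a (-0.51 ± 0.12, adjusted p = 0.009037) and 16.2 TPM for MC38-LM3b (-0.67 ± 0.12, adjusted p = 0.001318). St6galnac4, which adds sialic acid to sialylated core 1, was lower by -0.47 and -0.38. Its call in MC38-LM3b was lost without MC38-P replicate 2, MC38-LM3b replicate 2 or MC38-LM3b replicate 3, with an adjusted p of up to 0.07908.

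Of 19 tested genes for the supply of sugar donors, 10 rose and 1 fell in MC38-LM3a, and 13 rose and 1 fell in MC38-LM3b. Against the library median the counts were 8 and 0 in MC38-LM3a and 8 and 1 in MC38-LM3b. Slc35d2, a nucleotide sugar transporter of the Golgi, had the largest change, from a mean of 3.98 TPM to 8.17 TPM (0.89 ± 0.13, adjusted p = 0.0005572) and 9.18 TPM (1.04 ± 0.13, adjusted p = 0.000144). Galk2, which phosphorylates N-acetylgalactosamine for reuse, rose from 19.07 TPM to 28.61 and 31.52 TPM (0.56 and 0.70). Pgm3, of UDP-N-acetylglucosamine synthesis, rose by 0.51 and 0.67, and Ugp2, which makes UDP-glucose, by 0.36 and 0.59. Nans (0.32 and 0.24) and Cmas (0.26 and 0.35), both of sialic acid metabolism, passed with values as deposited but in neither derivative relative to the library median, where the values were 0.31 (adjusted p = 0.06683) and 0.02 (adjusted p = 0.9023) for Nans and 0.26 (adjusted p = 0.05754) and 0.13 (adjusted p = 0.3001) for Cmas. In MC38-LM3a their fold changes were nearly the same as with values as deposited and the SE was larger, and in MC38-LM3b the fold changes were smaller. Without MC38-LM3a replicate 3, both passed in MC38-LM3a on that scale, Nans at 0.44 (adjusted p = 0.005545) and Cmas at 0.35 (adjusted p = 0.008356). Galk1, the galactokinase, was lower by -0.28 and -0.43. Uap1l1, Gne and Slc35a1 also passed in both derivatives. Against the library median, Uap1l1 passed in neither, with its value at 0.38 on both scales in MC38-LM3a (adjusted p = 0.08552) and going from 0.27 to 0.05 in MC38-LM3b (adjusted p = 0.8149). Slc35a1 then did not pass in MC38-LM3b (0.10, adjusted p = 0.1214), nor Galk1 in MC38-LM3a, where its value was -0.28 on both scales and the SE went from 0.09 to 0.16 (adjusted p = 0.183). When MC38-LM3a replicate 3 was left out as well, Galk1 in MC38-LM3a was at -0.12 (adjusted p = 0.469), while Uap1l1 passed there at 0.52 (adjusted p = 0.01681). The MC38-LM3a calls of Galk1, Gne, Slc35a1 and Uap1l1 were kept in 1, 0, 2 and 6 of the 9 fits that left out a library, and the MC38-LM3b calls of Slc35a1 and Uap1l1 in 6 and 3.

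None of the 10 Muc genes listed reached the filter, and the highest value of any of them was 0.56 TPM. Of the 9 tested genes for mucins and mucin-like carriers, 1 rose and 2 fell in MC38-LM3a, and 4 rose and 3 fell in MC38-LM3b. With libraries set against their median, the counts were 1 and 3, and 4 and 4. Pdpn, which encodes the O-glycosylated membrane protein podoplanin, rose from a mean of 120.3 TPM to 170.0 TPM (0.50 ± 0.07, adjusted p = 0.0003847) and 193.7 TPM (0.69 ± 0.07, adjusted p = 3.855e-05). Cd24a, which encodes a small mucin-like surface protein, fell from 17.47 TPM to 8.88 and 9.23 TPM (-0.90 ± 0.13, adjusted p = 0.0004232, and -0.86 ± 0.13, adjusted p = 0.0004082). Sdc1, a heparan sulfate proteoglycan gene kept in this list, fell from 72.31 TPM to 42.61 and 45.84 TPM. Without replicate 3 of both MC38-P and MC38-LM3a, the MC38-LM3a values of Fut4 (0.45), St3gal1 (0.41), Pgm3 (0.31), Gne (0.20), B3gnt2 (0.17), Slc35a1 (0.145) and Galk1 (-0.12) were over 1.5 times smaller than with all libraries and passed. Of the 50 tested genes in these lists, leaving out the other initiation enzymes, 21 passed in both derivatives (42.0%, against 22.4% of all tested genes), 15 of them higher (as were 13.3% of all tested genes) and 6 lower (as were 9.07% of all tested genes). In every fit that left out a library and under each of 3 other scalings, 12 did so (24.0%, against 11.9% of all tested genes). The 8 that rose (6.77% of all tested genes did) were B3gnt3, Fut4, St3gal1, Pgm3, Galk2, Ugp2, Slc35d2 and Pdpn, and the 4 that fell (5.09% did) were B4galt2, St3gal6, Cd24a and Sdc1.

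The enzymes that start other kinds of O-glycan, such as O-mannose, O-fucose and xylose, were set beside the members. Of 12 tested, 0 rose and 3 fell in MC38-LM3a by the adjusted limma test, and 4 rose and 0 fell in MC38-LM3b. When libraries were set against their median, 1 rose and 3 fell in MC38-LM3a, and 3 rose and 3 fell in MC38-LM3b. Their median log2 fold change was -0.02 and 0.20, with values as deposited, near the 0.00 and 0.21 of all tested genes and below the 0.21 and 0.53 of the members.

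**Figure D5:**
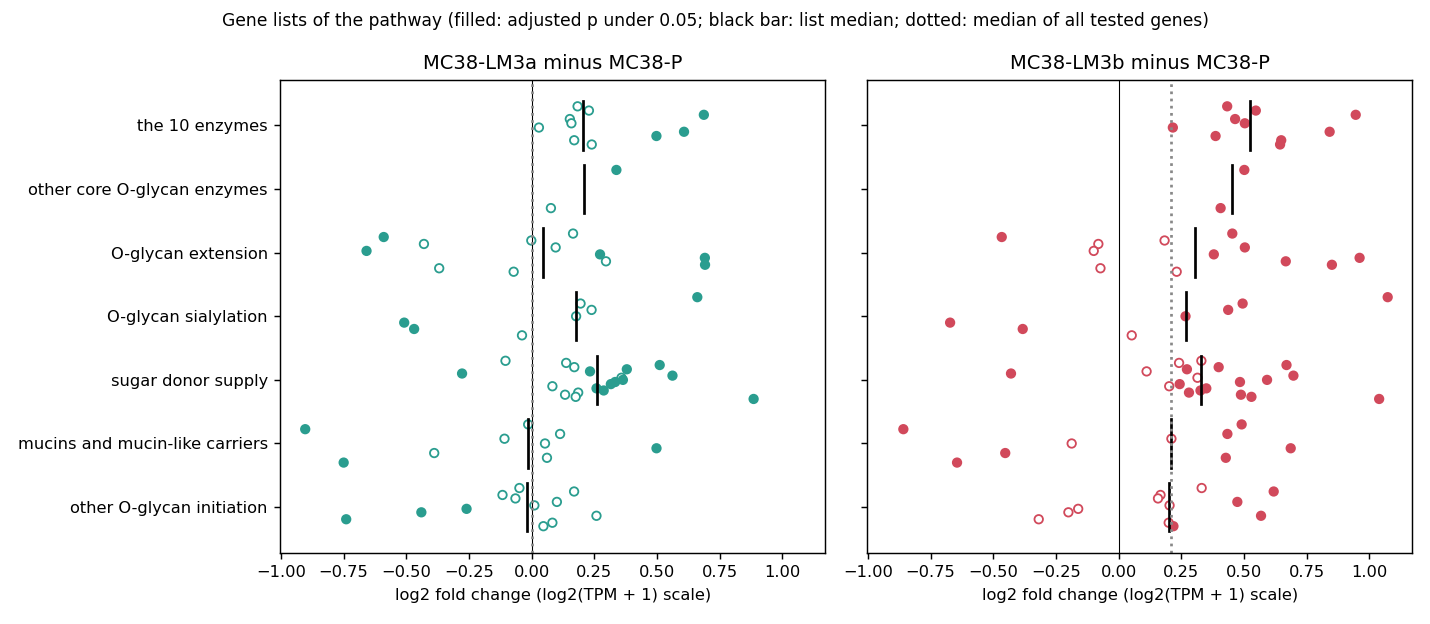
Log2 fold change (horizontal axes, log2(TPM + 1) scale) of each tested gene in the 10 enzymes and 6 other lists, in MC38-LM3a and MC38-LM3b against MC38-P. Filled points passed the test, black bars are list medians and the dotted line is the median of all tested genes. The enzyme medians are 0.21 and 0.53, and the extension, sialylation and carrier lists hold filled points on both sides of 0.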

How the data were processed

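The authors deposited TPM for 16399 genes by symbol and NCBI Gene number, rounded to 2 decimals and summing to 1000000 per library, from poly(A) RNA sequenced on the DNBSEQ platform. The submitters' processing notes name HISAT and GRCm39, and the quantification tool is not given in the sources used here. Without counts, the DESeq2 analysis of the study's methods could not be run, and depth is unknown. Samples were grouped by their titles.

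Genes that reached 1 TPM in 3 or more libraries were tested with limma 3.58.1 in R 4.3.3 on log2(TPM + 1), which understates changes of low genes. The 9 libraries shared a model with 1 mean per line and empirical Bayes moderation of a trended variance. Benjamini-Hochberg adjustment ran over all tested genes. A call was an adjusted p under 0.05. Tables were made with Python 3.11.15 (pandas 2.3.3). The test was run on simulated data first.

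Transcript length and GC content came from GENCODE M21 (98.31% of the tested genes), whose GRCm38 coordinates are printed, and upstream sequence from RefSeq (GRCm38.p6). Genes named were the 10 members, pathway genes called in both derivatives, tested genes of the 2 lists of other core enzymes and GalNAc-transferases, and the 5 most like Galnt3. Galnt3 was the member with the largest mean change. Poc1b, the marker genes and the composition values were added after the data were seen. Members and lists were chosen with earlier results of these data known. Alternatives changed the pseudocount, filter, libraries, scaling and replicate block.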

Additional observations from a re-analysis of the deposited data

How the results depend on the processing

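Each count of members called is given with the share of all tested genes called in the same fit. In MC38-LM3a, where 3 were called with values as deposited (28.0%), the count was 6 with libraries centred on their median (40.0%), 6 with quantile normalization (42.0%), 7 with length and GC offsets (51.2%), and 6 with centring and without MC38-LM3a replicate 3 (47.0%). Between the derivatives, where 0 were called (0.0532%), it was 9 without MC38-LM3a replicate 3 (56.4%), 4 with centring as well (38.3%), and 9 without replicate 3 of both MC38-P and MC38-LM3a (71.7%). When each library was left out in turn, it was 3 in each fit for MC38-LM3a (18.6% to 37.4%), 8 to 10 for MC38-LM3b (33.0% to 59.0%), and 0 to 9 between the derivatives (0.0% to 56.4%). For MC38-LM3b, where 10 were called (46.7%), 10 were called with a pseudocount of 0.1 (46.2%) and with 2 groups only (54.9%), 9 without a filter (32.0%), 8 with centring (49.3%), 7 with quantile normalization (50.5%) and 9 with the offsets (57.4%). Centring without MC38-LM3a replicate 3 and leaving out replicate 3 of both lines were chosen after seeing the data, and the cause of each change was not tested.

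Galnt10 changed sign in MC38-LM3b against MC38-P with centring (-0.0072), with the offsets (-0.026) and with centring without MC38-LM3a replicate 3 (-0.0081), and between the derivatives under the same settings (-0.035, -0.13 and -0.052). Galnt11 was at -0.0304 between the derivatives with quantile normalization, and Gcnt4 at -0.0155 in MC38-LM3a with centring without MC38-LM3a replicate 3. In MC38-LM3a, over the fits that left out a library or both replicate 3 libraries, the ranges were 0.014 to 0.24 for Galnt1, 0.035 to 0.29 for Galnt2, 0.35 to 0.72 for Galnt11, -0.023 to 0.23 for Galnt4, -0.14 to 0.26 for Galnt7, -0.089 to 0.067 for Galnt10, -0.082 to 0.26 for C1galt1, -0.024 to 0.32 for Gcnt1 and -0.17 to 0.18 for Gcnt4, lowest in each without both. The other results kept their direction. Depth could not be weighed, since no counts were given.

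Same-numbered libraries deviated from their group means with correlations of -0.662 to 0.075, the lowest between replicate 3 of MC38-P and of MC38-LM3a. With 3 libraries a line, these values cannot show whether samples were handled together by replicate number. With the replicate number as a block, 3, 9 and 0 members were called in MC38-LM3a, in MC38-LM3b and between the derivatives (19.5%, 34.5% and 0.0177% of the tested genes), and Galnt10 in MC38-LM3b had an adjusted p of 0.1064. The block also ended the MC38-LM3a calls of B3gnt2, Galk1, Gne and Slc35a1 and the MC38-LM3b calls of Gcnt4 and Uap1l1. Their adjusted p then lay between 0.06689 and 0.1074.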
